A study of Mus musculus with 8 samples.

Results

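The genes described here are those that set and mark the macrophage lineage, together with a ligand and the receptors of the colony-stimulating factors. They comprise Csf1, Csf1r, Csf2ra, Csf2rb, Spi1, Cebpa, Cebpb, Maf and Adgre1. The 9 genes were taken by symbol from the 54532 genes in the count table, each matched 1 row, and all 9 had enough reads to be tested. The libraries, 4 per genotype, held RNA from bone marrow-derived macrophages (BMDMs) of WT and Gsdmd-/- mice. All 8 cultures were grown from bone marrow with macrophage colony-stimulating factor (M-CSF) for 6 days, and no stimulus is named for these libraries. The methods describe the WT animals as purchased female C57BL/6J mice of 6 to 8 weeks, and the Gsdmd-/- animals as a gifted line kept in the local facility, with no age or sex given for that line. Neither source says that the animals were littermates, so genotype and colony cannot be told apart. Nothing says that each library came from a separate mouse, and the p-values therefore measure the spread between libraries, which may be technical.

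M-CSF, the product of Csf1, binds the receptor tyrosine kinase encoded by Csf1r, and this signal carries bone marrow progenitors into the macrophage lineage and keeps macrophages alive. The receptor for granulocyte-macrophage colony-stimulating factor (GM-CSF) pairs a ligand-specific alpha chain, encoded by Csf2ra, with the signaling beta chain encoded by Csf2rb. PU.1 (Spi1) and the C/EBP factors (Cebpa and Cebpb) are transcription factors that direct myeloid differentiation, c-Maf (Maf) is a transcription factor of mature macrophages, and Adgre1 encodes F4/80, the surface protein by which mouse macrophages are commonly stained. The comparison of the genotypes asks whether these genes keep their levels when Gsdmd is disrupted.

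None of the 9 genes passed the test between the genotypes. The fitted level in Gsdmd-/- ranged from 77.5% of WT for Cebpa to 99.8% for Maf, and all 9 estimates were below the WT level. The 95% intervals reached down to 60.3% of WT, for Cebpa, and up to 121%, for Maf. In the quasi-likelihood test of edgeR across 12911 genes (two-sided, with Benjamini-Hochberg adjustment over all of them), 0 of the 9 had an adjusted p under 0.05, where 0.349% of all genes passed. None was at the cutoff used by the study (unadjusted p under 0.05 with a log2 fold change of 0.5 or more in either direction), which 4.83% of all genes reached. The lowest adjusted p among the 9 was 0.310, for Adgre1. At an unadjusted p under 0.05 there were 4 (Adgre1, Csf1, Cebpa and Csf2ra), each with a lower level in Gsdmd-/-, where 12.0% of all genes reached that p in either direction. That number depended on the settings: it was 3 with limma voom, 3 with the exact test of edgeR, 4 with DESeq2 and 2 with upper-quartile factors (Csf1 and Adgre1). With 1 library left out it stayed at 4 without WT 4, dropped to 1 without WT 3 (Csf1) and to 1 without Gsdmd-/- 4 (Adgre1), and was 2 in each of the other 5 cases. None of the 3 other tools gave any of the 9 an adjusted p under 0.05. An estimate below 0 was found for 51.5% of all genes. The median log2 fold change was -0.16 over the 9 genes and -0.0068 over all genes tested.

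Gsdmd itself was checked first in the 8 libraries. It lay between 63.5 and 95.5 CPM in WT and between 14.4 and 18.2 CPM in Gsdmd-/- libraries, so that every library matched its label. CPM are counts per 1000000 counts of a library, with library sizes scaled by the TMM method of edgeR. Each library had between 14935114 and 16794810 counts in total, and a count of 0 allows up to 3 counts, or between 0.177 and 0.199 CPM, which covers counting error only. On the first principal component of log2 CPM, which held 43.6% of the variance, WT 2 and WT 3 (45.4 and 38.8) stood apart from the other 6 libraries (-25.9 to -7.19). Results are therefore also given without these libraries.

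The beta chain of the GM-CSF receptor has a near-identical copy in the mouse genome, Csf2rb2, whose product pairs with the IL-3 receptor alpha chain. Both genes lie on chromosome 15 of GRCm38, Csf2rb (ENSMUSG00000071713) on the plus strand from 78325752 to 78353847 and Csf2rb2 (ENSMUSG00000071714) on the minus strand from 78282507 to 78305721. In an alignment of their longest coding sequences in GENCODE M21, 95.4% of 2626 aligned bases were identical. The stretches below show where reads can and cannot tell the copies apart. The first pair is the least alike gap-free window of 60 coding bases, with 13 mismatches in capitals, at chr15:78338893-78338952 on the plus strand in Csf2rb and chr15:78294379-78294438 on the minus strand in Csf2rb2.

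Csf2rb: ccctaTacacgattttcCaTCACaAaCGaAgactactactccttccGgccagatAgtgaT
Csf2rb2: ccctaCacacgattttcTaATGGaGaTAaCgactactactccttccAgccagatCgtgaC

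The next sequence is the longest identical coding run, 242 bases at chr15:78348577-78348818 on the plus strand in Csf2rb and, with the same letters, at chr15:78284630-78284871 on the minus strand in Csf2rb2.

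Shared run: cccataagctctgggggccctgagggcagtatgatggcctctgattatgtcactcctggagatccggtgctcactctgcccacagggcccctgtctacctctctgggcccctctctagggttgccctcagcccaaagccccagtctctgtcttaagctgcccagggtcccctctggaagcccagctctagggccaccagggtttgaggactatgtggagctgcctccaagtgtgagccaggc

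Of all windows of 100 bases in the Csf2rb transcript, 7.0% were found unchanged in the Csf2rb2 transcript, and of the windows of 50 bases 18.4%. The read length and the treatment of reads with several matches are not given in the sources used here, so the split of reads between the copies is uncertain. The counts of Csf2rb were between 2.86 and 3.03 times those of Csf2rb2 in all 8 libraries.

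The ligand was described before its receptors. Csf1 (ENSMUSG00000014599, chromosome 3 from 107741048 to 107760469), which encodes M-CSF, had 210, 181, 175 and 201 CPM in WT libraries 1 to 4 and 174, 172, 147 and 154 CPM in Gsdmd-/- libraries 1 to 4. Every Gsdmd-/- library was below every WT library, but the lowest WT and the highest Gsdmd-/- library differed by less than 1 CPM. The means were 192 ± 16.4 CPM in WT and 162 ± 13.3 CPM in Gsdmd-/- (SD, n = 4 each). The log2 fold change was -0.25 (95% interval -0.45 to -0.041, edgeR adjusted p = 0.333). Without WT 2 and WT 3 it was -0.35 (edgeR adjusted p = 0.156).

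The M-CSF receptor gene Csf1r (ENSMUSG00000024621, chromosome 18 from 61100598 to 61132149) had 1281, 938, 985 and 1311 CPM in the WT libraries and 971, 958, 1032 and 1109 CPM in the Gsdmd-/- libraries. WT 1 and WT 4 were above all others, whereas WT 2 lay below all 4 and WT 3 below 2 of the Gsdmd-/- libraries. The log2 fold change was -0.15 (95% interval -0.43 to 0.13, edgeR adjusted p = 0.687), and this interval runs from 74.4% to 109% of the WT level. Without WT 2 and WT 3, the lowest WT libraries for this gene, the estimate was -0.35 (unadjusted p = 0.00321, edgeR adjusted p = 0.114). Leaving out low WT libraries chosen from the same data raises the WT level, so these p-values do not test the genotype. The estimate was -0.068 without WT 4 (edgeR adjusted p = 0.778) and -0.083 without WT 1 (edgeR adjusted p = 0.823). Of the exon bases of Csf1r, 15.1% are shared with Hmgxb3 on the opposite strand, which had a total of 4310 counts against 139659 for Csf1r.

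Csf2ra (ENSMUSG00000059326, chromosome 19 from 61223957 to 61228429), the alpha chain of the GM-CSF receptor, had 611, 642, 676 and 590 CPM in WT libraries and 579, 524, 562 and 559 CPM in Gsdmd-/- libraries. The genotypes did not overlap, and WT 4 and Gsdmd-/- 1 were the closest libraries across them. Csf2ra had a log2 fold change of -0.18 (95% interval -0.36 to -0.0034, edgeR adjusted p = 0.402) and -0.11 without WT 2 and WT 3 (edgeR adjusted p = 0.668).

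Promoters were taken from the RefSeq table of GRCm38.p6, from 250 bases before to 50 after each start. Spi1, Maf, Adgre1 and Csf2rb were not found in it, and Csf1r was left out. The promoters of the other 4 of the 9 genes (Csf1, Csf2ra, Cebpa and Cebpb) and of Csf2rb2 are described here. They were searched on both strands for the letters GAGGAA and GGAAGT, cores of sites of PU.1 and related ETS factors, and TTGCNNAA, a C/EBP core. GAGGAA was in 28.3%, GGAAGT in 23.8% and TTGCNNAA in 10.8% of 32851 promoters. Of the 4 genes only Csf2ra held any of these letters. Its promoter, at chr19:61228369-61228668 on the minus strand, and that of Csf2rb2, at chr15:78305672-78305971 on the minus strand, are shown since both hold matches. Capitals mark GAGGAA or GGAAGT in either orientation. In Csf2ra the 2 copies of GAGGAA follow each other directly, and in Csf2rb2 a copy of each motif overlaps by 4 bases near the end.

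Csf2ra: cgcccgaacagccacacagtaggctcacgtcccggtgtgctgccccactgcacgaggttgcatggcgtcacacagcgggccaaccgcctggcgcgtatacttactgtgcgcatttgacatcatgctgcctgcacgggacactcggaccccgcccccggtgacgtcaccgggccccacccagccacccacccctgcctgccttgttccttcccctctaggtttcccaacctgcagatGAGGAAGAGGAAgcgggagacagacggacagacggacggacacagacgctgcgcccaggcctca
Csf2rb2: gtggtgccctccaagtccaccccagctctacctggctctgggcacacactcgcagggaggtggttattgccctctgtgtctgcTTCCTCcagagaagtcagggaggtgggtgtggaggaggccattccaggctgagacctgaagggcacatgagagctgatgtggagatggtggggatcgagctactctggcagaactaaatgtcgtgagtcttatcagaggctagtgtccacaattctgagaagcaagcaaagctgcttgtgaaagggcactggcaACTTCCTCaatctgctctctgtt

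A match of letters is a description of the sequence and was not tested for binding.

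Csf2rb was the most abundant of the 9 genes and ranked 23 among all genes by mean CPM. It had 3714, 3647, 3306 and 3255 CPM in WT and 2935, 3214, 2917 and 3417 CPM in Gsdmd-/- libraries. Gsdmd-/- 4 exceeded WT 3 and WT 4, while the other 3 Gsdmd-/- libraries were below all WT libraries. This gave a log2 fold change of -0.16 (95% interval -0.36 to 0.048, edgeR adjusted p = 0.552). Csf2rb2 gave the same -0.16 (95% interval -0.36 to 0.043, edgeR adjusted p = 0.541), with 1186 ± 78.5 CPM in WT and 1063 ± 83.7 CPM in Gsdmd-/- (SD, n = 4 each). Both genes lie on the same chromosome as Gsdmd, with 2458343 and 2415098 bases between them and its end.

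**Figure D1:**
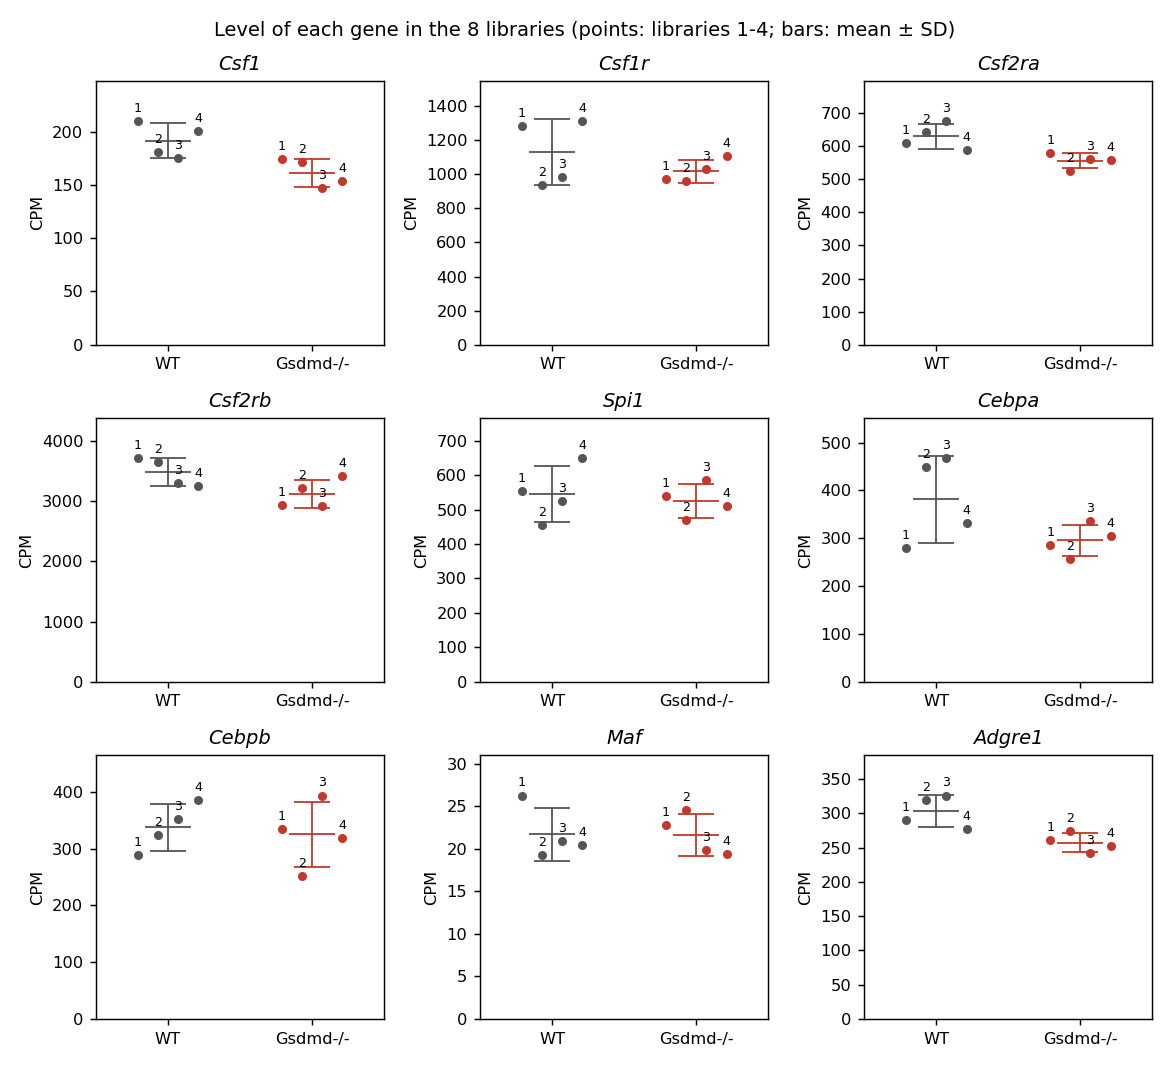
CPM of each of the 9 genes (vertical axes from 0) in WT and Gsdmd-/- libraries, with a numbered point per library and bars for mean ± SD of 4 libraries. The genotypes are apart for Csf1, Csf2ra and Adgre1 and overlap for the other 6 genes, and the WT libraries of Csf1r and Cebpa fall into an upper and a lower pair.

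Within a library, the balance of the receptors was compared by the ratio of counts, which does not depend on the scaling between libraries. The ratio of Csf2ra to Csf1r was 0.477, 0.684, 0.686 and 0.450 in WT libraries and 0.597, 0.547, 0.544 and 0.504 in Gsdmd-/- libraries. All Gsdmd-/- values lay inside the WT range, and the mean log2 ratio was -0.83 ± 0.33 in WT and -0.87 ± 0.10 in Gsdmd-/- (SD, n = 4 each, exact permutation test, two-sided, p = 0.800, adjusted p = 0.886 over 3 ratios). The ratio of Csf2rb to Csf1r ran from 2.48 to 3.89 in WT and from 2.83 to 3.35 in Gsdmd-/- libraries (exact permutation test, two-sided, p = 0.886, adjusted p = 0.886 over 3 ratios). For both ratios WT 2 and WT 3 held the highest WT values, and without them the log2 difference turned to 0.24 for Csf2ra to Csf1r and to 0.19 for Csf2rb to Csf1r. The smallest p that 4 libraries against 4 allow is 0.0286.

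Among the transcription factors, Spi1 (ENSMUSG00000002111, chromosome 2 from 91082390 to 91115756) had 553, 454, 524 and 649 CPM in WT and 539, 468, 587 and 509 CPM in Gsdmd-/- libraries. The lowest and the highest library were both WT, and the Gsdmd-/- libraries lay between them. Spi1 had a log2 fold change of -0.051 (95% interval -0.31 to 0.21, edgeR adjusted p = 0.899). The test therefore leaves a level between 80.4% and 116% of WT for this gene.

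Cebpa (ENSMUSG00000034957, chromosome 7 from 35119293 to 35121928), whose product acts early in the granulocyte and macrophage lineage, had the largest difference of the 9 genes. It had 279, 449, 467 and 332 CPM in WT and 286, 257, 335 and 304 CPM in Gsdmd-/- libraries. WT 2 and WT 3 were the highest, and WT 1 and WT 4 lay within the Gsdmd-/- range. The log2 fold change was -0.37 (95% interval -0.73 to -0.0073, unadjusted p = 0.0463, edgeR adjusted p = 0.402). Without WT 2 and WT 3 it was -0.048 (edgeR adjusted p = 0.927).

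Cebpb (ENSMUSG00000056501, chromosome 2 from 167688915 to 167690418), a factor that is induced as macrophages mature and respond to stimuli, had 289, 324, 351 and 385 CPM in WT and 334, 252, 393 and 319 CPM in Gsdmd-/- libraries. The lowest and the highest library were both Gsdmd-/-. Its log2 fold change was -0.054 (95% interval -0.36 to 0.25, edgeR adjusted p = 0.909). Of its exon bases, 20.7% are shared with Tmem189 on the opposite strand, which had 36751 counts in all against 43053 for Cebpb, and since the sources used here do not say that strand was used in counting, some reads of this stretch could belong to either gene. The ratio of Cebpb to Cebpa was 1.03, 0.722, 0.752 and 1.16 in WT and 1.17, 0.982, 1.17 and 1.05 in Gsdmd-/- libraries (exact permutation test, two-sided, p = 0.200, adjusted p = 0.600 over 3 ratios). Only WT 2 and WT 3 were below all Gsdmd-/- libraries, and without them the log2 difference went from 0.28 to -0.0072.

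Maf (ENSMUSG00000055435, chromosome 8 from 115682942 to 115707794) was the least abundant of the 9 genes. It had 26.3, 19.2, 20.9 and 20.4 CPM in WT and 22.9, 24.6, 19.9 and 19.4 CPM in Gsdmd-/- libraries, from between 292 and 432 counts per library. The genotypes overlapped almost completely, and the log2 fold change was -0.0023 (95% interval -0.28 to 0.28, edgeR adjusted p = 0.996). The sign of this estimate changed with the normalization and with the libraries used.

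Adgre1 (ENSMUSG00000004730, chromosome 17 from 57358691 to 57483527), the gene of F4/80, had 291, 319, 326 and 277 CPM in WT and 261, 275, 242 and 252 CPM in Gsdmd-/- libraries. Each Gsdmd-/- library was below each WT library, with WT 4 and Gsdmd-/- 2 almost level. Mean levels were 303 ± 23.3 CPM in WT and 258 ± 13.8 CPM in Gsdmd-/- (SD, n = 4 each). The log2 fold change was -0.24 (95% interval -0.42 to -0.049, unadjusted p = 0.0182, edgeR adjusted p = 0.310) and -0.14 without WT 2 and WT 3 (edgeR adjusted p = 0.581). With Csf1 and Csf2ra, Adgre1 was 1 of 3 of the 9 genes whose libraries did not overlap, all lower in Gsdmd-/-, where 4.12% of all genes tested showed no overlap in that direction. In bulk RNA, fewer cells with a transcript and less of it per cell cannot be told apart.

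**Figure D2:**
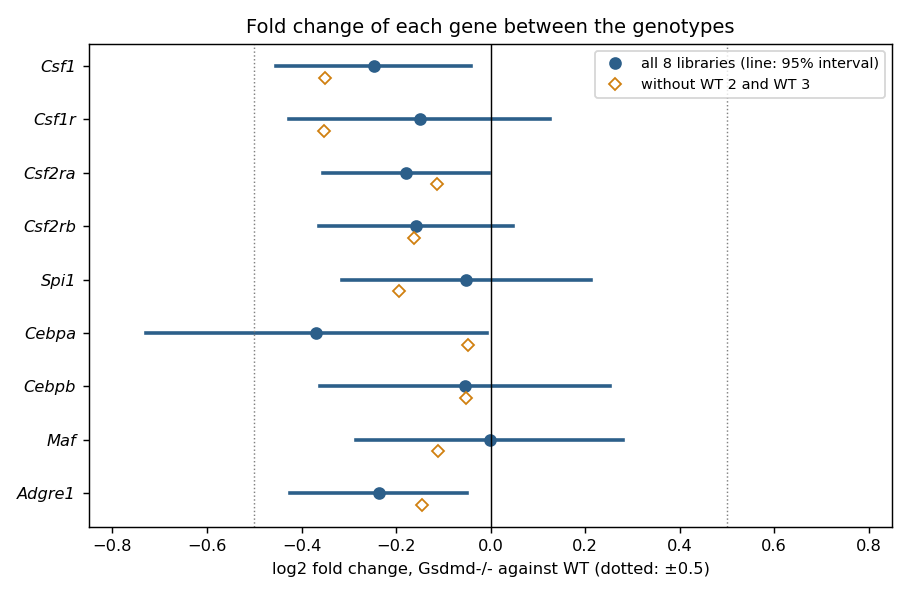
Log2 fold change of Gsdmd-/- against WT for the 9 genes, with points and 95% intervals from all 8 libraries and open diamonds for the fit without WT 2 and WT 3. All 9 points lie between -0.37 and -0.0023, and without these libraries Csf1r moves away from 0 to -0.35 and Cebpa towards 0 to -0.048.

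WT 2 and WT 3 therefore moved these genes in different directions. On the log2 scale, as deviation from the mean of a gene over the 8 libraries, Cebpa was at 0.44 in WT 2 and 0.49 in WT 3 and Adgre1 at 0.19 and 0.23, whereas Csf1r was at -0.18 and -0.11. Csf1r reached 0.27 in WT 1 and 0.30 in WT 4. Spi1 was at 0.05, -0.23, -0.02 and 0.29 in WT 1 to 4, above its mean in the same libraries as Csf1r but with WT 1 and WT 3 close to it, and its log2 fold change went from -0.051 to -0.19 without WT 2 and WT 3. The Gsdmd-/- libraries spread less for Csf1r and Cebpa, with an SD of 69.3 and 32.8 CPM against 194 and 91.0 CPM in WT. Leaving out WT 2 and WT 3 brought 0 of the 9 genes to an adjusted p under 0.05 and left 2 (Csf1r and Csf1) at an unadjusted p under 0.05, which 13.1% of the 13288 genes tested in that fit reached. Only 2 WT libraries remain in it.

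**Figure D3:**
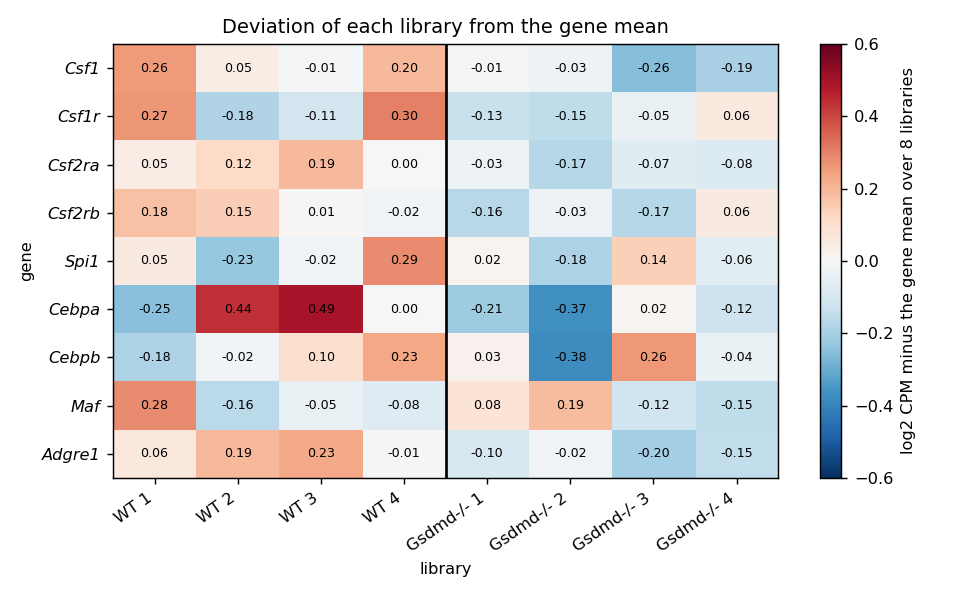
Deviation of log2 CPM from the mean of each gene (rows) in each of the 8 libraries (columns, with a line between the genotypes), in red above and in blue below the mean. Cebpa is highest in WT 2 (0.44) and WT 3 (0.49), while Csf1r is highest in WT 1 (0.27) and WT 4 (0.30).

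To compare levels between genes, CPM were divided by the exon length of each gene in kilobases (RPKM). In WT, Csf2rb was highest with 478 ± 32.1 RPKM (SD, n = 4), above every library of the other 8 genes. Cebpb (224 ± 27.2 RPKM), Csf2ra (219 ± 13.1 RPKM), Spi1 (202 ± 29.9 RPKM) and Csf1r (196 ± 33.7 RPKM) followed with overlapping ranges (SD, n = 4 each). Cebpa (145 ± 34.5 RPKM) overlapped Csf1r and Spi1, and Adgre1 (93.7 ± 7.19 RPKM) lay below all libraries of Cebpa. Csf1 (36.3 ± 3.11 RPKM) and Maf (2.64 ± 0.379 RPKM) were the lowest and were apart from their neighbours (SD, n = 4 each). In Gsdmd-/- libraries Csf2rb was again highest at 429 ± 33.0 RPKM and Maf lowest at 2.63 ± 0.302 RPKM (SD, n = 4 each). There Cebpb, Spi1, Csf2ra and Csf1r had 216, 195, 194 and 176 RPKM with overlapping ranges, so that Spi1 and Csf2ra stood in the other order. Cebpa (112 RPKM) was then below all libraries of these 4 genes, and Adgre1 (79.5 RPKM) and Csf1 (30.6 RPKM) kept their places. Lengths are the union of all annotated exons of a gene, so a gene with long exons that these cells do not use has too low a value.

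**Figure D4:**
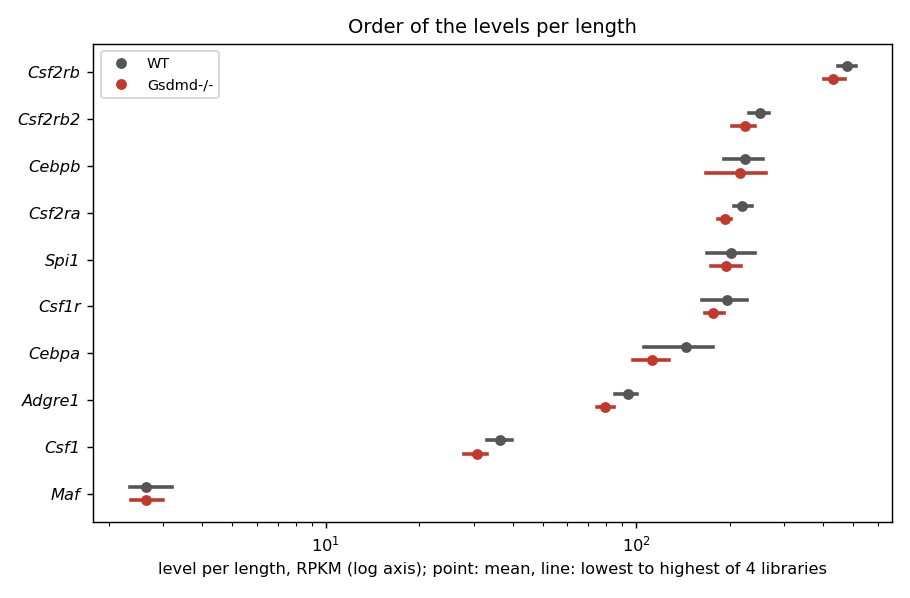
Level per length (RPKM, log axis) of the 9 genes and Csf2rb2 in WT and Gsdmd-/-, with points for the mean and lines from the lowest to the highest of 4 libraries. Csf2rb lies highest (478 RPKM in WT) and Maf lowest (2.64 RPKM in WT) in both genotypes.

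The other genes of the pathway were few among ligands and receptors. Of 11 further ligands and receptors of this family, 5 were tested. Of these 0 had an adjusted p under 0.05 (0.349% of all genes did) and 0 had an unadjusted p under 0.05 (12.0% of all genes did). Il34, the other ligand of the M-CSF receptor, and Il3 had 0 counts in all libraries. Csf2, the gene of GM-CSF, had 2 counts over the 4 WT libraries and 0 over the 4 Gsdmd-/- libraries, so that no transcript of the GM-CSF ligand was detectable above the limit of 3 counts beside the abundant receptor chains. Kit, the stem cell factor receptor, had a log2 fold change of 0.59 (edgeR adjusted p = 0.720), and its ligand Kitl one of -0.45 (edgeR adjusted p = 0.681). Without WT 2 and WT 3 both changed sign, to -0.19 and 0.27.

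Downstream of these receptors, 20 signaling genes were listed and all 20 were tested. None had an adjusted p under 0.05, 2 had an unadjusted p under 0.05 (12.0% of all genes did), both lower in Gsdmd-/-, and the median log2 fold change was -0.085. Ptpn6, the gene of the phosphatase SHP-1 that dampens signals of myeloid receptors, had 113, 121, 132 and 122 CPM in WT and 86.4, 83.0, 95.1 and 92.4 CPM in Gsdmd-/- libraries. The genotypes did not overlap, and the log2 fold change was -0.45 (standard error 0.0812, edgeR adjusted p = 0.0564). Its adjusted p depended on the setting. It was under 0.05 with RLE normalization (0.0491), the exact test of edgeR (0.00240) and DESeq2 (4.17e-05), but 0.0593 with limma voom, 0.0711 with upper-quartile factors and 0.148 with the replicate block. With 1 library left out it ranged from 0.0538 to 0.260. Plcg2, a phospholipase of receptor signaling, had a log2 fold change of -0.22 (edgeR adjusted p = 0.382), and the adapter gene Grb2 one of 0.17 (edgeR adjusted p = 0.492), which was 0.062 without WT 2 and WT 3.

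Of 18 further myeloid transcription factors, 16 were tested and 0 had an adjusted p under 0.05. At an unadjusted p under 0.05, 1 was higher and 4 were lower in Gsdmd-/-, against 12.0% of all genes in either direction, and the median log2 fold change was -0.074. Tfec, a relative of the macrophage and osteoclast factor Mitf, had a log2 fold change of -0.29 (edgeR adjusted p = 0.212), with an adjusted p of 0.0379 by DESeq2 and between 0.147 and 0.523 under the other alternatives. Runx1, a factor of blood stem and progenitor cells, had one of -0.37 (edgeR adjusted p = 0.297), and Nr1h3, the gene of the oxysterol receptor LXR-alpha, one of -0.43 (edgeR adjusted p = 0.321). For Nr1h3 the estimate was -0.15 without WT 2 and WT 3.

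The label of the cells was checked with markers. Of 20 macrophage markers, 17 were tested, their summed level lay between 23435 and 33549 CPM in WT and between 28533 and 34210 CPM in Gsdmd-/- libraries, and Timd4, of resident tissue macrophages, had 0 counts. Most of that sum came from Lyz2 (16546 CPM in WT and 19000 CPM in Gsdmd-/-) and Lgals3 (6322 and 7036 CPM), both also found in other cells and named after their values were seen. None of the 17 had an adjusted p under 0.05 (0.349% of all genes did) or an unadjusted p under 0.05 (12.0% of all genes did). Their median log2 fold change was -0.086. The 3 with the lowest p were Mertk (log2 fold change -0.48, edgeR adjusted p = 0.483), C1qa (-1.44, edgeR adjusted p = 0.489) and Vcam1 (-0.65, edgeR adjusted p = 0.491). For Mertk the direction turned without WT 2 and WT 3 (0.054). With 1 library left out, Vcam1 ran from -0.99 (without Gsdmd-/- 2) to -0.47 (without Gsdmd-/- 4). C1qa, a chain of complement C1q made by macrophages, had 44.9, 4.46, 6.66 and 77.6 CPM in WT and 15.2, 11.8, 13.4 and 8.96 CPM in Gsdmd-/- libraries. WT 1 and WT 4 were above and WT 2 and WT 3 below all Gsdmd-/- libraries, the same pairs as for Csf1r. The estimate for C1qa was -0.59 without WT 4, -0.56 with limma voom and -0.65 with the replicate block. The fit without WT 2 and WT 3 left 2 WT libraries and gave an adjusted p under 0.05 to 1.21% of all genes. In it 5 macrophage markers passed by edgeR, all lower in Gsdmd-/-: C1qa (log2 fold change -2.31), C1qc (-1.27), C1qb (-1.22), Fcgr1 (-0.85) and Axl (-0.73). The libraries left out were chosen from the same data and held the lowest C1qa values, so these calls do not test the genotype. C1qc, C1qb, Fcgr1 and Axl were named after their values were seen.

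Markers of other cells were mostly near 0. The 7 lymphoid markers summed to at most 0.487 CPM, led by Cd79a, and the 8 stromal markers to at most 4.50 CPM, led by Lepr. Mast cell and basophil markers, led by Hdc, summed to at most 3.04 CPM. Of 10 neutrophil markers, Ly6g and Retnlg had 0 counts and 8 had a mean under 1 CPM, while Mmp8 reached a mean of 682 CPM. Mmp8 had 757 CPM in WT and 607 CPM in Gsdmd-/- (log2 fold change -0.32, unadjusted p = 0.0261, edgeR adjusted p = 0.346, overlapping libraries). Of the 2 neutrophil markers tested, 1 had an estimate below 0 and 1 above. Of 7 dendritic cell markers, Siglech had 0 counts and 4 had a mean under 1 CPM, while Itgax, which macrophages also carry, reached a mean of 2095 CPM. Of the 3 tested, Clec9a, named after its values were seen, reached the cutoff of the study with 32.2 CPM in WT and 16.6 CPM in Gsdmd-/- (log2 fold change -0.95, edgeR adjusted p = 0.304, overlapping libraries). The summed level of the dendritic cell list lay between 2228 and 2372 CPM in WT and between 1674 and 2098 CPM in Gsdmd-/- libraries, without overlap, in the same direction as Csf1, Csf2ra and Adgre1. Nearly all of this sum was Itgax, with 2273 CPM in WT and 1917 CPM in Gsdmd-/- (log2 fold change -0.25, unadjusted p = 0.0240, edgeR adjusted p = 0.337). The summed monocyte and progenitor markers, led by Chil3, were 154, 76.7, 81.7 and 198 CPM in WT and lay between 97.5 and 119 CPM in Gsdmd-/- libraries, with WT 2 and WT 3 again the lowest. Megakaryocyte markers (led by Pf4) had between 10.1 and 33.4 CPM, endothelial markers (led by Kdr) between 27.8 and 80.9 CPM and 8 proliferation genes (led by Pcna) between 332 and 475 CPM. WT 2 and WT 3 had the lowest endothelial sums (29.6 and 27.8 CPM, against 48.6 CPM or more in the other 6 libraries) and the highest proliferation sums (472 and 475 CPM, against 421 CPM or less). Cdh5 of the endothelial list, named after its values were seen, reached the cutoff of the study with 5.18 CPM in WT and 3.66 CPM in Gsdmd-/- (log2 fold change -0.51, edgeR adjusted p = 0.402, overlapping libraries). Osteoclasts form from macrophage precursors when RANKL is given with M-CSF, and no RANKL is named for these cultures. The summed osteoclast markers (led by Ctsk) lay between 538 and 698 CPM in WT and between 645 and 852 CPM in Gsdmd-/- libraries. Of 8 osteoclast markers Calcr had 0 counts, Oscar had a mean of 0.160 CPM, 6 were tested and 0 had an adjusted p under 0.05, but 5 reached the cutoff of the study, where 4.83% of all genes did, 3 of them with higher and 2 with lower levels in Gsdmd-/-. The higher values were those of Ctsk (log2 fold change 0.65, edgeR adjusted p = 0.113), Itgb3 (0.75, edgeR adjusted p = 0.174) and Mmp9 (1.21, edgeR adjusted p = 0.264). Mmp9 was faint, with 0.472 CPM in WT and 1.11 CPM in Gsdmd-/- (31 and 71 counts over 4 libraries each). For these genes the libraries did not overlap, and the share of all genes without overlap in that direction was not counted. The lower values were those of Acp5 (-0.95, edgeR adjusted p = 0.401) and Dcstamp (-0.63, edgeR adjusted p = 0.292), which overlapped. Itgb3, Mmp9, Acp5, Dcstamp and Oscar were named after their values were seen. The part of these cells or states in the levels of the 9 genes was not tested.

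**Figure D5:**
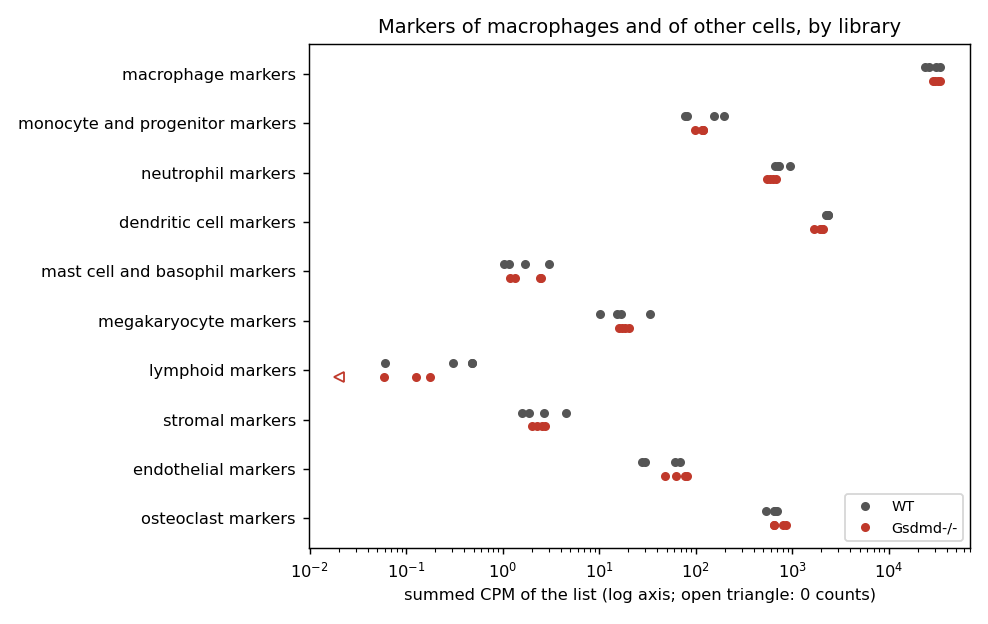
Summed CPM (log axis) of each marker list in the 8 libraries, with a point per library, WT in grey and Gsdmd-/- in red, and an open triangle for a library with 0 counts. Macrophage markers lie between 23435 and 34210 CPM, and lymphoid markers at or below 0.487 CPM.

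For each of the 9 genes, the gene with the most similar pattern over the 8 libraries was found among all genes tested, as a description. Csf1r was closest to Treml2 (Pearson r = 0.98 over 8 libraries and 1.00 over the 6 without WT 2 and WT 3), and Spi1 to Srsf9 (r = 0.99 and 0.99). Cebpa was closest to Rhob (r = 0.99 and 0.96), Adgre1 to Cntnap1 (r = 0.99 and 0.98) and Csf2ra to Icam1 (r = 0.98 and 0.94). The others were Csf1 with Synj2 (r = 0.97 and 0.97), Csf2rb with Eif4g1 (r = 0.97 and 0.97), Cebpb with Twf2 (r = 0.98 and 0.99) and Maf with Blzf1 (r = 0.94 and 0.93). The libraries are shared by all pairs, and each partner is the best of 12911 genes, so high values arise by selection.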

How the data were processed

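RNA of 8 BMDM cultures (4 WT, 4 Gsdmd-/-) was sequenced by a company from TruSeq libraries of total RNA. The authors deposited raw read counts per gene, not normalized, in 1 table; each column was matched to a sample by its label. The submitters' processing notes name the build mm10; the aligner, counting tool and annotation are not given in the sources used here. All 9 genes were found by identifier in GENCODE M21 (GRCm38, the same assembly), which gave positions and exon lengths. Counts were scaled by TMM, filtered with filterByExpr and compared by the quasi-likelihood test of edgeR 4.0.16 (R 4.3.3) with genotype as the only term, the tool that the study names beside limma. Intervals are 95% from the fit; log2 CPM use a prior count of 2. Ratios of counts were compared by exact permutation tests. Alternatives were DESeq2 1.42.0, limma voom (limma 3.58.1), edgeR's exact test, upper-quartile or RLE factors, dropping the filter, requiring 10 or more counts per library, omitting each library in turn, a replicate block, leaving out WT 2 and WT 3, and, added after seeing the data, Csf2rb and Csf2rb2 counts added. The functions were tested on simulated data. The 9 genes and the lists were chosen with earlier results of these data known. Named were the 9 genes and Gsdmd, in each of the 4 pathway and macrophage lists the genes with an adjusted p under 0.05 or otherwise the 3 with the lowest p, in each other list the gene with the highest mean CPM, and for each of the 9 genes the closest partner.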

Additional observations from a re-analysis of the deposited data

Results flagged for a closer look

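In groups of 4 libraries, a library far from the other 3 was looked for with Dixon's ratio (the gap to the nearest library over the range of the group, against its 95% critical value). Chance gives such a value in about 1 in 20 groups, and 3 of 100 groups examined had one, with none of the 9 genes among them. Grb2 was at 300 CPM in Gsdmd-/- 3 against 279, 280 and 280 CPM in the other Gsdmd-/- libraries (ratio 0.920). Pcna was at 257 CPM in Gsdmd-/- 3 and between 203 and 210 CPM in the other 3 (ratio 0.859). The summed monocyte and progenitor markers were at 97.5 CPM in Gsdmd-/- 4 and between 116 and 119 CPM in the other 3 (ratio 0.876).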

How the results depend on the processing

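In the 17 alternatives to the comparison of the 9 genes, and in 1 more for Csf2rb, no gene reached an adjusted p under 0.05 and none reached the cutoff of the study. Csf1, Csf1r, Csf2ra, Csf2rb, Cebpa and Adgre1 kept estimates below 0 in all of them. With 1 library left out Csf1 ran from -0.29 to -0.20, Csf1r from -0.23 to -0.068, Csf2ra from -0.21 to -0.14, Csf2rb from -0.21 to -0.12, Cebpa from -0.49 to -0.26 and Adgre1 from -0.28 to -0.20. Spi1 ran from -0.13 to 0.046, Cebpb from -0.16 to 0.046 and Maf from -0.074 to 0.10 when 1 library was left out, Spi1 being above 0 without WT 4, Cebpb without WT 4 or Gsdmd-/- 2 and Maf without WT 1, Gsdmd-/- 3 or Gsdmd-/- 4. Maf was also above 0 with limma voom (0.0031), upper-quartile factors (0.010), no filter (0.017) and the replicate block (7.1e-06). Leaving out WT 2 and WT 3 together moved Csf1r to -0.35 and Cebpa to -0.048. It reversed Kit (-0.19), Kitl (0.27) and Mertk (0.054), and the log2 difference of the ratios Csf2ra to Csf1r (0.24), Csf2rb to Csf1r (0.19) and Cebpb to Cebpa (-0.0072). With 1 library left out these ranged from -0.15 to 0.053 for Csf2ra to Csf1r, from -0.13 to 0.085 for Csf2rb to Csf1r and from 0.17 to 0.40 for Cebpb to Cebpa. Of the 58 tested genes in the 4 pathway and macrophage lists, 0 had an adjusted p under 0.05 in the main test, 1 with the exact test of edgeR (Ptpn6), 2 with DESeq2 (Ptpn6 and Tfec), 1 with RLE factors (Ptpn6) and 5 without WT 2 and WT 3. Among all genes the 45 with an adjusted p under 0.05 became 246 with the exact test of edgeR, 292 with DESeq2, 109 without a filter, 25 with the replicate block, 161 without WT 2 and WT 3 and between 14 and 84 with 1 library left out. Counting Csf2rb and Csf2rb2 as 1 gene gave -0.16 (adjusted p = 0.554).

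Replicate numbers 1 to 4 occur in both genotypes. The deviations of same-numbered libraries had r of 0.027, 0.18, 0.041 and -0.20 across genes, against -0.25 to 0.33 for libraries with different numbers. These values cannot decide whether same-numbered libraries were prepared together. Under the replicate block Adgre1 was at -0.23 (adjusted p = 0.496), Csf1 at -0.25 (0.462), Cebpa at -0.34 (0.503) and Csf1r at -0.14 (0.732), and 0 of the 9 genes passed.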
